A study of Mus musculus with 7 samples.

Results

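Between the genes of mouse intestinal epithelium, 1847 stretches of chromatin carried a vitamin D receptor (VDR) peak in each of 3 libraries from hormone-treated mice and in none of 3 libraries from vehicle-treated mice. They were selected on the presence of peaks. Peaks of the 6 deposited lists were merged wherever they overlapped by at least 1 bp on chromosomes 1 to 19 and X. A merged region was kept when its centre lay outside every protein-coding gene body and more than 1 kb from every protein-coding transcription start. Of 86995 merged regions, 4687 (5.39%) were hormone-only in this sense, and 1847 of the 40434 merged regions between genes (4.57%) were. The set is thus 39.4% of all hormone-only regions. The remaining hormone-only regions lay inside genes (1952) or within 1 kb of a start (888). The reverse pattern, a peak in all 3 vehicle and no 1,25(OH)2D3 library, was found for 6 of the 40434 regions between genes (0.0148%). The shortest vehicle list held 3860 peaks between genes and the shortest 1,25(OH)2D3 list 10841, so the counts of the opposite patterns had unlike upper limits. Because presence in the lists defined the set, its presence with hormone and absence with vehicle is a description and carries no test.

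The mice were wild-type, fed standard chow and 8 weeks old. One group was given the active vitamin D hormone, 1,25(OH)2D3, at a dose of 10 ng for each g of weight, and the other was given vehicle. Epithelial cells were released with EDTA from duodenum and jejunum 1 h later, and chromatin bound by VDR was precipitated and sequenced (ChIP-seq). Each group has 3 libraries, and nothing in the labels says that each came from its own mouse, so spreads describe these libraries only. A single input library, labelled with the hormone dose, served as background for all peak calls.

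VDR is a nuclear receptor that binds DNA as a heterodimer with a retinoid X receptor (RXR). Its usual element, DR3, is a direct repeat of a 6-base half-site such as AGGTCA or GGTTCA with a spacer of 3 bases. In the proximal intestine the receptor is known for driving calcium absorption through an apical channel, cytosolic calcium-binding proteins and a basolateral calcium pump. Many of its known enhancers lie far from promoters.

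The region that stood highest in the hormone lists is shown whole because it holds an exact DR3 in 2 copies. It lies between Slc30a10, which encodes a manganese exporter, and Lyplal1, at chr1:187310333-187310622 (build mm9, plus strand), 31.8 kb downstream of the Slc30a10 start. The same 15 bases stand at bases 110 to 124 and 146 to 160 of the region, 36 bases apart from start to start. Capitals mark the half-sites of both copies.
Slc30a10 region: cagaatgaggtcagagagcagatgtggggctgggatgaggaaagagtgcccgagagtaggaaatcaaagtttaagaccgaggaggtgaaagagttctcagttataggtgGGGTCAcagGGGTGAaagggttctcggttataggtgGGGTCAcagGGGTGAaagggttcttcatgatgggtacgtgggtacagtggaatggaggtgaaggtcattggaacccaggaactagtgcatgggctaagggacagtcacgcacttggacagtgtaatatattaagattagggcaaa

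The next sequences show how the element looks in members that rank high or lie near calcium genes. Each is 65 bases of mm9 read on the strand of the element, which has 25 flanking bases on each side, and capitals mark its half-sites. The first 6 are, with Slc30a10, among the 8 highest-listed members with an exact DR3, and all 6 differ from each other in their 15 bases. They lie nearest to Pla2g3, a secreted phospholipase gene (chr11:3375794-3375858, minus strand), Gm9843 (chr16:76540092-76540156, plus strand) and Fosb, an AP-1 subunit gene (chr7:19886079-19886143, minus strand). The others lie nearest to Slc34a2, a sodium-phosphate cotransporter gene (chr5:53414393-53414457, minus strand), Atp2b1, the plasma membrane calcium pump gene of the enterocyte (chr10:98290387-98290451, plus strand), and Cyp26b1, a retinoic acid hydroxylase gene (chr6:84384756-84384820, minus strand).
Pla2g3: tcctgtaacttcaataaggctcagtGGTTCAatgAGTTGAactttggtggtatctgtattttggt
Gm9843: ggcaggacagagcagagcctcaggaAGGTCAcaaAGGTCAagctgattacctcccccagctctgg
Fosb: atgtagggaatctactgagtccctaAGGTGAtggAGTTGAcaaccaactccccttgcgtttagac
Slc34a2: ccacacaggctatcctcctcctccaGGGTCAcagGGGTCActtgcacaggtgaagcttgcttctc
Atp2b1: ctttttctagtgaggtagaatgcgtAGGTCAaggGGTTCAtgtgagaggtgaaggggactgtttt
Cyp26b1: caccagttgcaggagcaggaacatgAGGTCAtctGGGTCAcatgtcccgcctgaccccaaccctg
The last 2 have 1 mismatch to the element and lie nearest to calcium genes. They are a calmodulin gene, Calm2 (chr17:87900602-87900666, plus strand), and the apical calcium channel gene Trpv6 (chr6:41590288-41590352, plus strand).
Calm2: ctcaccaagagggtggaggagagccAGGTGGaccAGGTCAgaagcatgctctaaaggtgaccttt
Trpv6: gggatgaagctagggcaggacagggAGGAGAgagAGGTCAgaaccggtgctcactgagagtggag
In these 2 the second half-site is AGGTCA and the first departs from the consensus at 1 base.

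The peak calls rest on libraries of unequal depth. The 1,25(OH)2D3 libraries held 17152461, 17438643 and 66524392 tags, and those from vehicle mice 19733260, 15991198 and 68560701. Peaks between genes numbered 10841, 12601 and 17753 in the 1,25(OH)2D3 lists, and 3860, 6475 and 24587 in the vehicle lists. Per the file headers, a candidate peak needed at least 10, 11 and 20 tags in the 1,25(OH)2D3 libraries and 11, 10 and 17 in the vehicle libraries. The comparison with the input then removed 50.7%, 43.4% and 63.2% of the candidates with hormone and 77.5%, 61.5% and 65.3% with vehicle. The third vehicle list stood apart: it was the longest of the 6, and 7.93% of its peaks between genes held a DR3 of at most 1 mismatch, against 20.4% and 15.4% in the other vehicle lists. The share in the 1,25(OH)2D3 lists was 20.2%, 16.8% and 16.9%. The group means were 18.0% ± 1.91 with hormone and 14.6% ± 6.29 with vehicle (SD, n = 3 each), a difference of 3.37 percentage points that did not exceed the spread between libraries (two-sided exact permutation p = 0.5, smallest possible 0.1). Without the third vehicle library the difference was 0.03 points. With every list cut to the length of the shortest it was 3.89 points, and every 1,25(OH)2D3 list lay above every vehicle list (exact permutation p = 0.1, the smallest possible). Without that library, 3041 regions met the rule, and without the first 1,25(OH)2D3 library 3202 did, though leaving out a library also loosens the rule. With the lists cut to equal length, 237 did. The tags behind each peak are not analysed here, so absence from a vehicle list means that no peak was called. The part that depth, the share of tags in peaks and these filters played in such absence was not tested.

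Within the hormone lists the set held middle positions. The deposited score is 1 for every peak, so the order of the list is the only grading, expressed as a percentile with 100 for the first peak. It is a position, not a measured occupancy. Members had a median of 43.5, 41.4 and 55.7 in the 3 1,25(OH)2D3 lists, and their mean over the lists ran from 4.95 to 99.2 with a median of 46.6 (quartiles 29.1 and 65.3). Hormone-only regions inside genes had a median of 47.7. Regions between genes with a peak in all 6 libraries had 89.3. The peak centres of the 3 hormone libraries lay closer together in those regions than in members. The median spread from the outermost centre to the other was 80 bp in members and 45 bp in regions of all 6 libraries. A spread of at most 50 bp was found in 27.9% of members and 55.7% of regions of all 6 libraries, a difference of -27.7 points (95% interval -30.7 to -24.7). Members were 289 to 806 bp wide, with a median of 366 bp.

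The 12 members highest by mean position stood at 93.0 or above. The Slc30a10 region had 98.8, 99.2 and 99.5 in replicates 1, 2 and 3. It was followed by a region 63.7 kb downstream of Gm826 with 96.6, 95.5 and 97.6, and by one 1.95 kb upstream of Prkar2a, a protein kinase A regulatory subunit gene, with 96.4, 95.1 and 98.0. In all 3 the lists agreed to within about 3 percentile units. The next 3 lay 48.3 kb upstream of Azin1, which encodes antizyme inhibitor (92.5, 96.2 and 95.1), 14.6 kb upstream of Aktip (96.3, 93.5 and 93.9) and 67.9 kb upstream of Smox, the spermine oxidase gene (92.3, 92.4 and 97.6). Other members of this group lay nearest to Copg (a COPI coat subunit gene), Atp1b1 (the beta subunit of the sodium-potassium ATPase), Ttyh2, Rybp (a polycomb-associated factor gene) and Smpd3 (a neutral sphingomyelinase gene). Of the 12, Slc30a10 alone had an exact DR3, Gm826, Copg and Ttyh2 had 1 with 1 mismatch, and the other 8 needed 2 or more mismatches.

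**Figure D1:**
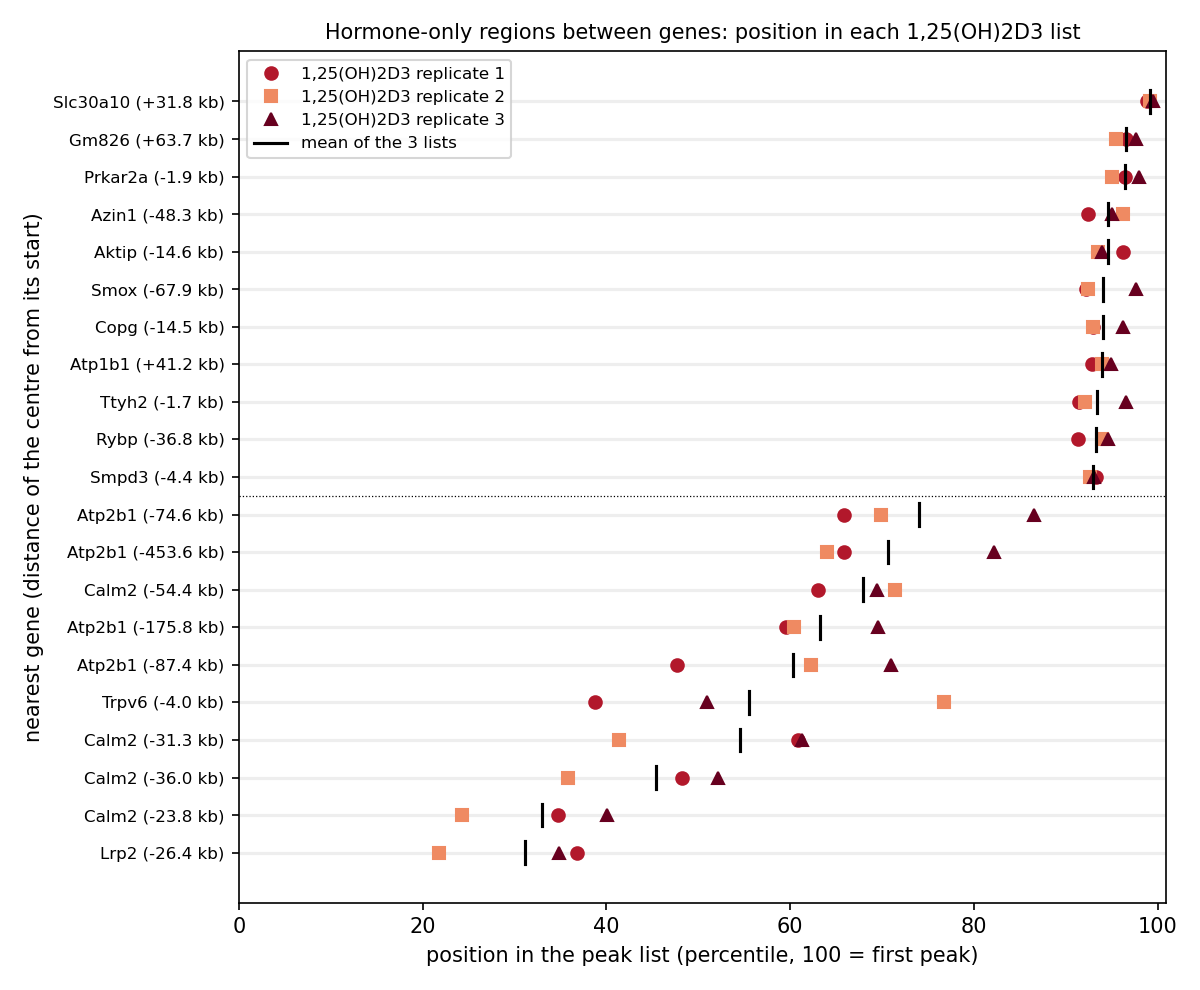
Position of 21 members in the peak lists of 1,25(OH)2D3 replicates 1 to 3 (x axis, percentile with 100 for the first peak; black bars, mean of the 3 lists). Rows are 11 of the 12 highest members above the dotted line and, below it, the other members nearest a calcium or vitamin D gene, labelled with the nearest gene and the signed distance from its start in kb; the upper 11 all stand at 91.4 or above in every list, and those below spread from 21.8 to 86.5.

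Members lay near genes of calcium transport. Of 14 calcium transport genes, 9 had a member within 100 kb of a start, against 4419 of all 22350 protein-coding genes (19.8%). Among these were Trpv6 and its neighbour Trpv5, the calcium-binding protein gene S100g, the pumps Atp2b1 and Atp2b4, the claudins Cldn2 and Cldn15, and the calmodulin gene Calm2. The other 5, Calb1, Atp2b2, Slc8a1, Cldn12 and Casr, had none. Of the 14, 4 were the nearest gene of a member. The share was close to that of immediate early and AP-1 genes (62.5%) and of intestinal transcription factors (60%). The lists were chosen with results of these data known, and a count of neighbours says nothing of which gene a region acts on.

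By nearest start, 4 members belonged to Atp2b1, all upstream, at 74.6, 87.4, 176 and 454 kb. The nearest of them stood at 65.8, 69.9 and 86.5 in replicates 1, 2 and 3, and the one with the exact DR3, at 87.4 kb, at 47.6, 62.3 and 71.0. For each of these 4 the third replicate gave the highest position. Another 4 belonged to Calm2, at 23.8, 31.3, 36.0 and 54.4 kb upstream of its start, in the interval towards Epcam. Their mean positions were 33.0, 54.5, 45.4 and 68.0, in the same order, and the farthest was the highest. The single Trpv6 member lay 3.97 kb upstream of the start with 38.7, 76.7 and 51.0, the widest disagreement between lists among the calcium members. Its nearest vehicle peak was 1.74 kb away.

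Of 11 genes of vitamin D metabolism and its receptor, 5 had a member within 100 kb: Cyp24a1, which encodes the catabolic 24-hydroxylase, Cyp27b1 (the activating 1-alpha-hydroxylase), Cyp27a1, Rxra and Lrp2 (the endocytic receptor megalin). Vdr was among the 6 without one. Lrp2 alone was the nearest gene of a member, which lay 26.4 kb upstream at a mean position of 31.1.

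Among other lists, phosphate and metal transport had a member near 7 of 19 genes and bile acid and xenobiotic handling also near 7 of 19. The members nearest to Slc40a1, the iron exporter ferroportin, and Slc34a2 had mean positions of 78.5 and 69.1. Those nearest to Gsta1, Cyp3a13 and Cyp3a11, genes of detoxifying enzymes, had 72.3, 63.0 and 49.8. Enterocyte function counted 8 of 20 genes, with members at Krt20 (84.9), the aminopeptidase gene Anpep (57.5) and the amino acid transporter gene Slc7a9 (56.7). Intestinal transcription factors counted 9 of 15, led by the homeobox gene Isx (86.8) and by Klf5 (77.7) and Gata6 (68.2). Slc34a2, Isx and Gata6 were nearest to more than 1 member, and the highest of each is given. These are positions of regions, not levels of the genes.

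Tight junction and adhesion genes had a member in 7 of 13 cases, immediate early and AP-1 genes in 5 of 8, and cell cycle and growth control genes in 4 of 12. The highest members there lay at the claudin gene Cldn3 (69.8), at Ier2 (79.8) and at Foxo1 (55.4). F11r, Tjp1 (the scaffold protein ZO-1), Jun, Gadd45a and Klf6 were nearest to members at 64.3, 55.7, 52.5, 52.3 and 50.6. F11r, Tjp1 and Klf6 were nearest to more than 1 member, and the highest of each is given. The Jun and Klf6 members, 104 and 168 kb from the starts, lay beyond 100 kb and were not counted. Stem cell and Wnt genes counted 3 of 11 (Prom1, Ephb2 and Smoc2). The highest of the members nearest to Sox9 and to Myc, 381 and 141 kb downstream of the starts, also lay beyond it. The highest at Prom1 lay 1.26 kb upstream. Markers of other cell types counted 4 of 20, or 20%, beside 19.8% of all genes. Among them were Cck (an enteroendocrine hormone gene, with 4 members, the highest at 72.8), Acta2 (smooth muscle actin, 68.7 for its highest) and Chga.

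The DR3 element was found in 408 members (22.1%, 95% Wilson interval 20.3 to 24.0) within 100 bp of the centre with at most 1 mismatch, against 10.9% of all merged regions. An exact element stood in 51 (2.76%), against 1.64% of all merged regions. A half-site was read as A or G, then G, then G or T, then T, then C or G, then A, on both strands. In windows 5 kb to the right of the members, the share was 5.09%, so members exceeded their own surroundings by 17.0 points (95% interval 14.9 to 19.2). Exact elements were found in 3 of those 1847 windows. On a regular grid of positions every 10 kb between genes the shares were 3.76% and 0.142%.

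Members carried the element less often than constant regions. Regions between genes in all 6 libraries had a DR3 in 27.6% of cases, so members were lower by -5.54 points (-8.26 to -2.81), and at 0 mismatches by -2.71 points (-3.97 to -1.46). The comparison depends on 1 library. Without the first vehicle library, which had the shortest list, the difference was -1.13 points (-3.44 to 1.23). Regions of all 6 libraries also stood higher in the hormone lists, with a median of 89.3 against 46.6. Cut into 5 equal parts by mean list position, they had a DR3 in 39.3%, 30.6%, 24.6%, 20.1% and 23.6% from the highest to the lowest. The part of list position in the difference was not tested. Members did not differ detectably from hormone-only regions inside genes (21.5%; 0.62 points, -2.00 to 3.25). They were above hormone-only regions within 1 kb of a start (15.4%; 6.66 points, 3.54 to 9.62), and above regions between genes with a peak in all hormone and 1 or 2 vehicle libraries (19.3%; 2.81 points, 0.58 to 5.11). Intervals cover counting error only.

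**Figure D2:**
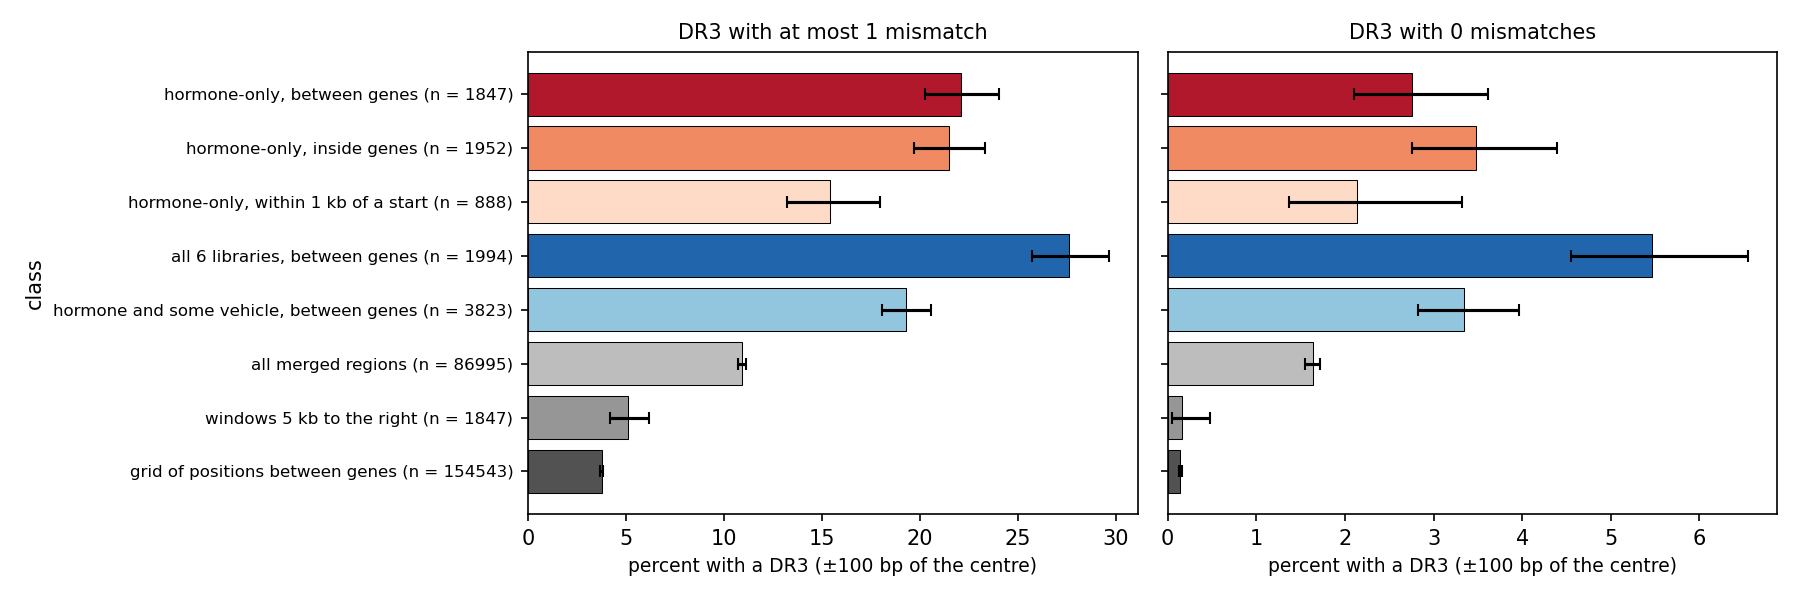
Percent of regions or windows with a DR3 within 100 bp of the centre, at most 1 mismatch on the left and 0 mismatches on the right (bars, share; whiskers, 95% Wilson interval; class and n on the y axis). Hormone-only regions between genes (22.1%) lie near those inside genes (21.5%), below regions of all 6 libraries (27.6%) and above the windows 5 kb to the right (5.09%).

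A spacer of 3 bases stood out among the arrangements of half-sites. Pairs of half-sites with at most 1 mismatch were counted in direct, inverted and everted orientation at spacers of 0 to 10 bases. Direct repeats with a spacer of 3 stood highest of all 33 arrangements, at 22.1% of members and 5.09% of the windows beside them. A second, lower peak lay at a spacer of 1, an arrangement also bound by HNF4 and RXR pairs, with 16.1% of members and 5.63% of windows. Direct repeats at the other spacers ran from 9.15% to 13.4% of members. Regions of all 6 libraries between genes also peaked at spacers of 3 and 1, with 27.6% and 18.0%, so this pattern is not particular to members. Inverted and everted pairs ran from 3.30% to 6.06% in members and from 1.30% to 3.63% in windows. In windows direct repeats ran from 4.06% to 6.66%. An inverted or everted pair reads the same on both strands, so the search gives it fewer possible matches than a direct repeat. Shares are therefore best compared within an orientation or with the windows.

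**Figure D3:**
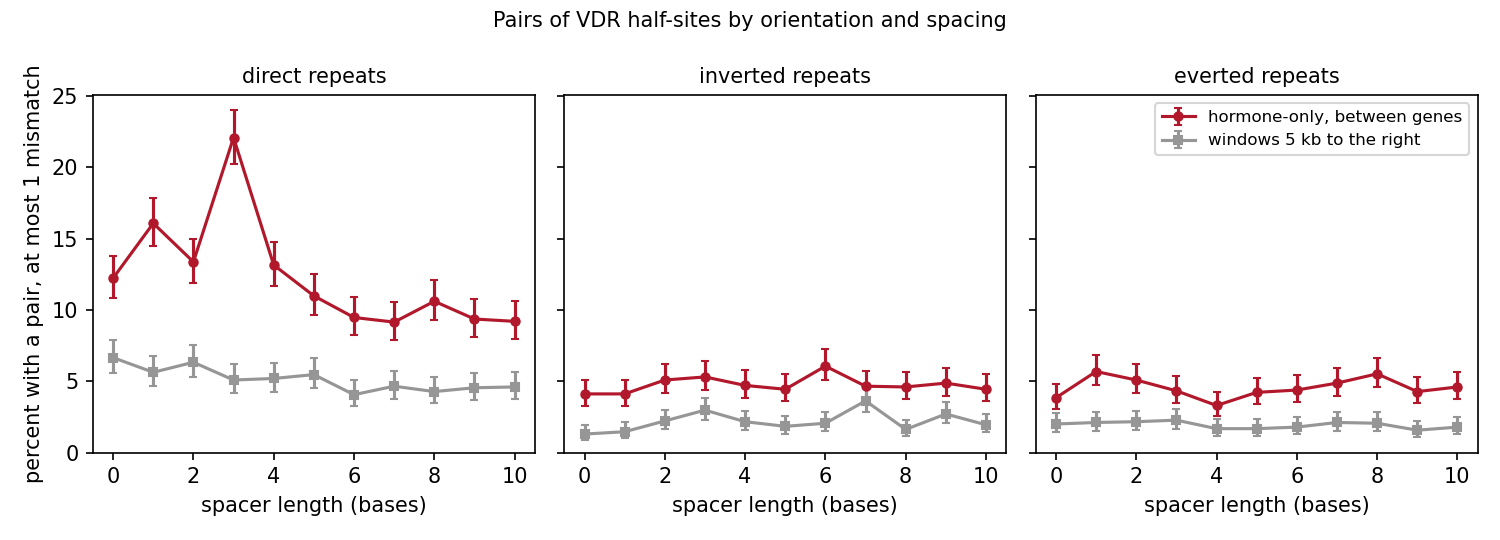
Percent of hormone-only regions between genes (red) and of windows 5 kb to their right (grey) with a pair of VDR half-sites of at most 1 mismatch, by spacer length in bases and orientation (whiskers, 95% Wilson interval). The direct repeats peak at a spacer of 3 (22.1% against 5.09%) with a lower rise at 1 (16.1% against 5.63%).

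The elements themselves were varied and central. The 408 elements comprised 392 different 15-base strings, and 11 strings recurred, 1 of them in 5 members. Of the elements, 70.1% had their centre within 50 bp of the region's centre, against 77.9% in regions of all 6 libraries (-7.76 points, -13.4 to -2.17) and 55.3% in the windows beside members (14.8 points, 4.09 to 25.7). The commonest first half-site was AGGTCA, in 15.7% of elements. In the second half-site, GGTTCA was rarer in members than in regions of all 6 libraries (9.07% and 17.2%; -8.17 points, -12.3 to -3.85), while AGGTCA stood at 12.7% and 8.71% (4.03 points, 0.11 to 8.18). These are the 2 of 16 compared words and sides whose intervals leave out 0. An exact DR3 in 2 copies was found in 4 members and in 1 region of all 6 libraries. The 4 lie nearest to Slc30a10, to Arntl (a core circadian clock gene), to Smox (another region than the one above) and to Prdm2.

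Within the set, the element was more frequent towards the end of the lists. Members were cut into 5 equal parts by mean list position, a division made after the values were seen. The DR3 share (at most 1 mismatch) was 16.2%, 13.5%, 22.2%, 27.1% and 31.4% from the highest to the lowest part, so the lowest exceeded the highest by 15.2 points (9.11 to 21.2). Exact elements stood in 1.62% of the highest and 6.50% of the lowest part. The same division by each list alone gave 13.9, 14.4 and 13.9 points for replicates 1, 2 and 3. Leaving out 1 library at a time gave 10.9 to 16.1 points, each with an interval above 0. Hormone-only regions inside genes also had more in their lowest part (34.6% and 14.3%; 20.3 points, 14.4 to 26.1). So did regions between genes with a peak in all hormone and 1 or 2 vehicle libraries (24.5% and 19.2%; 5.26 points, 1.12 to 9.38). Regions between genes in all 6 libraries ran the other way, with 23.6% in the lowest and 39.3% in the highest part (-15.7 points, -22.0 to -9.31).

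Other features moved along the same division. From the highest to the lowest part of the members, the median distance to a start was 18.8, 17.4, 24.7, 26.4 and 31.4 kb, and the mean number of CpG per 201-base window was 3.65, 3.09, 2.53, 2.45 and 2.03. The HNF4 motif was found in 21.6%, 22.4%, 22.0%, 21.1% and 15.7%, in the same order, and so was lower in the last part only. The lowest part differed from the highest by -5.90 points (-11.5 to -0.28). Single VDR half-sites were found in 88.1% of the lowest and 82.7% of the highest part (5.37 points, 0.27 to 10.5). For AP-1, CREB, CTCF, ETS, GATA, HNF1 and KLF/SP the interval of the difference included 0. The part of base composition and distance in the DR3 trend was not tested.

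**Figure D4:**
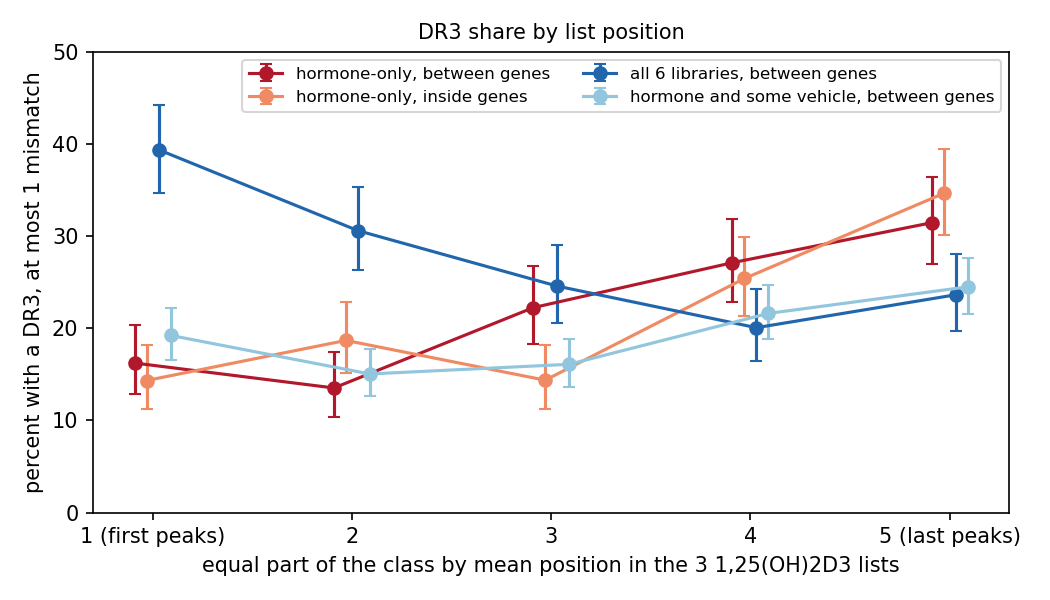
Percent of regions with a DR3 of at most 1 mismatch (y axis; whiskers, 95% Wilson interval) in 5 equal parts of each class, ordered by mean position in the 3 1,25(OH)2D3 lists from the first peaks to the last. The share in hormone-only regions between genes is 16.2% in the highest and 31.4% in the lowest part, and in regions of all 6 libraries 39.3% in the highest and 23.6% in the lowest. In regions between genes with hormone and some vehicle peaks it is 19.2% in the highest and 24.5% in the lowest.

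Motifs of other intestinal factors were searched in the same windows, 16 in all, on both strands. A single VDR half-site, a word shared by many nuclear receptors, stood in 84.9% of members and 57.6% of the windows 5 kb to the right. HNF4, an enterocyte nuclear receptor, was searched as CAAAGTCCA with up to 1 mismatch and found in 20.6% and 5.47% (15.1 points, 13.0 to 17.2). Its share in regions of all 6 libraries was 22.3%, not detectably different (-1.69 points, -4.28 to 0.91). All HNF4 matches overlapped a VDR half-site in 16.3% of the members with the motif. The GATA factors' motif, searched as AGATAAG, stood in 7.31% of members and 2.49% of windows, beside 5.97% of all merged regions. That of AP-1, searched as TGANTCA, stood in 12.9% and 5.96%, beside 10.9% of all merged regions. Both were below regions of all 6 libraries, at -3.62 points (-5.44 to -1.80) for GATA and -2.36 points (-4.55 to -0.15) for AP-1. So were TEAD (-2.21 points, -4.31 to -0.11) and the single half-site (-2.36 points, -4.56 to -0.18). C/EBP (TTGCNNAA) was above them, in 10.6% of members and 8.53% of those regions (2.09 points, 0.23 to 3.96). It stood in 9.08% of all merged regions. For the other motifs this interval included 0. All matches of CREB (TGACGTCA, 1 mismatch), found in 9.42% of members and 4.39% of windows, overlapped a half-site in 51.1% of those members. Over all merged regions the half-site stood in 67.8%, HNF4 in 13.3% and CREB in 6.31%.

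Some motifs did not set members apart from the windows beside them. The motif of CTCF stood in 2.22% of members and 2.44% of windows, KLF/SP (GGGGCGG) in 1.57% of each, TEAD (GGAATG) in 11.5% and 10.99%, and CDX (TTTATNG) in 13.7% and 11.7%. RUNX (TGTGGTT) was rarer in members, at 3.57% and 5.85%. Over all merged regions CTCF stood in 2.46%, KLF/SP in 2.31%, TEAD in 10.6%, CDX in 14.0% and RUNX in 5.07%. Hormone-only regions within 1 kb of a start had KLF/SP in 15.4% of cases, so members were lower by -13.9 points (-16.4 to -11.5). The median GC content was 47.8% in members, 57.7% in those promoter regions and 45.3% in the windows. Members with a DR3 had the HNF4 motif in 17.9% and those without in 21.3% (-3.44 points, -7.50 to 1.06).

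Members lay nearer to genes than most of the space between genes. The median distance from the centre to the nearest protein-coding start was 23.2 kb (95% interval 21.7 to 25.0; quartiles 9.08 and 62.8 kb). It was 25.3 kb (23.0 to 26.9) for regions of all 6 libraries between genes and 98.8 kb for the grid. A share of 14.5% lay 1 to 5 kb from a start, 42.2% lay 10 to 50 kb away, 14.1% 100 to 500 kb away, and 24 members (1.30%) farther. The centre was upstream of the nearest start in 67.1% of members, against 67.3% of regions of all 6 libraries (-0.17 points, -3.14 to 2.80) and 58.2% of grid positions (8.93 points, 6.74 to 11.05).

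**Figure D5:**
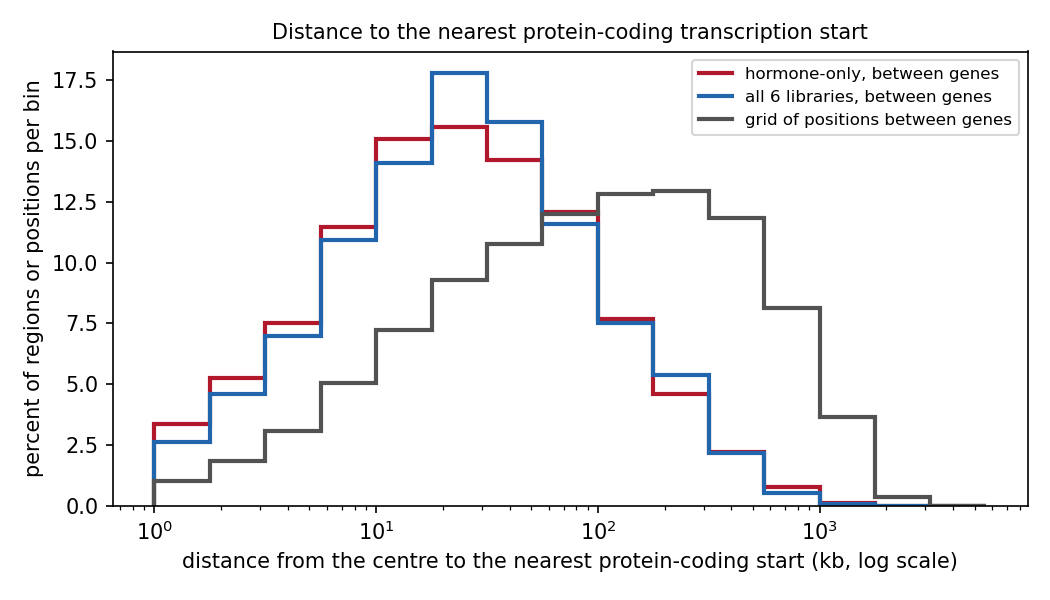
Percent of regions or positions per bin (y axis) by distance from the centre to the nearest protein-coding start in kb (x axis, log scale). Hormone-only regions between genes (red, median 23.2 kb) and regions of all 6 libraries (blue, 25.3 kb) lie nearer to starts than the regular grid of positions between genes (grey, 98.8 kb).

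The extremes mark the edges of the set. The farthest members lay 1516 kb upstream of Cntnap5a, 1248 kb downstream of Gm1840 and 930 kb downstream of Pcdh11x, of which Cntnap5a encodes a contactin-associated protein and Pcdh11x a protocadherin. Their mean positions were 15.1, 50.3 and 8.04. Just outside the 1 kb limit stood members 1013 bp upstream of Pbld1 and 1015 bp upstream of Pla2g4f. The hormone-only regions just inside it, 995 bp upstream of Hdac11 and 981 bp upstream of Gm5959, were not members. A vehicle peak lay within 100 bp of 15 members and within 1 kb of 215 (11.6%), and the median gap was 7064 bp. The closest lay 16 bp from a member 244 kb downstream of Rplp1 and 17 bp from one 8.78 kb downstream of Duox2, an oxidase gene. The Tmx3 member, which completes the 8 highest with an exact DR3, lay 4.16 kb upstream of its start at 62.3, 68.8 and 82.5.

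Constant VDR regions were common in the neighbourhood. A region found in all 6 libraries lay within 10 kb of 225 members (12.2%) and within 100 kb of 58.8%. The share within 10 kb was 10.6% for hormone-only regions inside genes (1.63 points, -0.39 to 3.66) and 2.36% for the grid (9.83 points, 8.41 to 11.4). Regions of all 6 libraries between genes had another such region within 10 kb in 21.5% of cases (-9.28 points, -11.6 to -6.93). Without the first vehicle library, 19.6% of the hormone-only regions had one within 10 kb. The Slc30a10 region lay 2.76 kb from one, while the Ttyh2 region lay 508 kb from the nearest.

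Members fell in 1413 intervals between genes, 1129 of which held 1 member. Those between Maf, a bZIP transcription factor gene, and Dynlrb2 and between Opa1, a mitochondrial fusion gene, and Gm1968 held the most, with 7 each. In the Maf interval of 797 kb the members ran from 98.3 kb upstream of Maf to 93.4 kb upstream of Dynlrb2. Their mean positions were 18.6 to 29.9 for 6 of them and 72.9 for the seventh. The interval held 69 merged regions in all, 8 of them in all 6 libraries. The Opa1 interval of 304 kb held 27, of which 1 was in all 6 libraries, and its members stood from 17.7 to 77.3.

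The intervals Cebpb-Ptpn1, C030005K15Rik-Atp2b1 and Phlda1-Krr1 followed with 6 members each, as did Klf10-Azin1 and Gm9843-Usp25. In the Phlda1-Krr1 interval the 6 lay within 8.80 to 63.2 kb downstream of the Phlda1 start, at 29.9 to 53.8. By nearest start, Klf10, a TGF-beta-inducible zinc finger gene, had 8 members and Bmp2, a morphogen gene, had 7, both chosen after their values were seen. The Klf10 members lay from 98.3 kb upstream to 36.8 kb downstream of its start. The highest of them, 21.5 kb downstream, stood at 86.0, 87.5 and 91.4, and the only one with an exact DR3, 60.6 kb upstream, at 5.14, 11.9 and 38.1.

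Some members lay in annotated non-coding genes, which the rule did not exclude. There were 111 (6.01%), against 3.88% of grid positions (2.13 points, 1.13 to 3.31). Of these 67 were in long intergenic non-coding RNA genes (3.63% and 1.61%; 2.02 points, 1.26 to 2.98), with 4 members in Gm17245, among them the Smpd3 region. The Myc member named above lay in Pvt1. Processed transcripts held 42 (2.27% and 1.70%; 0.57 points, -0.02 to 1.36).

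The members were spread over every chromosome examined, at 1.20 per Mb between genes overall. Chromosome X had the fewest with 0.301 per Mb (35 members), against 1.27 per Mb on the autosomes, and chromosome 19 had the most with 2.30. Regions of all 6 libraries gave 0.318 per Mb on X and 2.46 on chromosome 19. All merged regions between genes also ran from 6.99 per Mb on X to 37.2 on chromosome 19. The sex of the mice is not given in the labels.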

How the data were processed

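ChIP-seq reads were mapped to the mm9 assembly by the authors using Bowtie, with peaks from HOMER, per the submitters' processing notes. Their versions are not given in the sources used here. Per the file headers, HOMER treated every library separately, with the same input for all, at a false discovery rate of 0.001, a Poisson limit of 0.0001, a clonal limit of 2 on the fold under the expected unique tag positions, and at least 4-fold over both the input and the surrounding 10 kb. The deposited files give the position of each peak, of a width fixed per library, and a score of 1 throughout. Presence was therefore compared, and the order of the list was used as a position. What that order follows is not stated.

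Regions were merged, placed with GENCODE mouse M1 (NCBI 37, the mm9 assembly; 22350 protein-coding genes) and read from that genome with Python 3.11.15, numpy 2.4.6, scipy 1.17.1 and pysam 0.24.0. Motifs were searched within 100 bp of each centre. Shares carry 95% Wilson intervals and differences Newcombe intervals, and no test was made over regions. Values per library were compared by exact permutation. The motif search was tested on simulated sequences with planted elements, and the merge was compared with that of bedtools on the peak lists themselves. The members and the 11 gene lists (162 symbols, all found) were chosen with earlier results of these data known.

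Text names the 12 members highest by mean position, the 8 highest with an exact DR3, members nearest calcium or vitamin D genes, up to 3 per other list, the 5 fullest intervals, and those at the extremes of distance, the 1 kb limit and the vehicle gap. A few genes that this rule or the lists name are not reported here. Alternatives left out each library, changed mismatches, windows, merging and gene limits, and shortened the lists.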

Additional observations from a re-analysis of the deposited data

How the results depend on the processing

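Leaving out 1 library at a time gave 2039 to 3202 hormone-only regions between genes, a DR3 share of 18.2% to 22.4%, a difference from regions of all 6 libraries of -8.84 to -1.13 points, from hormone-only regions inside genes of -0.18 to 0.77 points and from the windows 5 kb to the right of 13.5 to 17.7 points. It gave a median distance of 23.5 to 24.3 kb, 11.3% to 19.6% within 10 kb of a region of all 6 libraries, a difference between the libraries' DR3 shares of 0.03 to 6.29 points, and 21.4% to 29.0% of genes with a member within 100 kb. With all 6 libraries the count was 1847 and the share of genes 19.8%. Leaving out a library loosens the rule, so that count and that share were nearly bound to rise. The widest moves came without the first vehicle library, without the third vehicle library and without the first 1,25(OH)2D3 library. The cause was not tested. With every list cut to the length of the shortest, 237 regions met the rule, with a DR3 share of 19.8%, a median distance of 19.3 kb and 21.9% within 10 kb of a region of all 6 libraries, and the difference between the libraries' DR3 shares was 3.89 points (exact permutation p = 0.1, which 3 against 3 cannot go below). The difference from hormone-only regions inside genes then had the other sign, -1.06 points, as it did at 0 mismatches (-0.72) and within 50 bp of the centre (-0.47), and its interval included 0 each time. The DR3 share was 2.76% at 0 mismatches, 65.8% at up to 2 and 14.1% within 50 bp of the centre. The outermost start of each gene gave a median distance of 25.3 kb. Distances of 5 and 25 kb from a region of all 6 libraries gave 4.66% and 26.3%, and distances of 50 and 200 kb from a start gave 11.1% and 33.0% of genes. Members exceeded the windows beside them in each setting run, including windows to the left and 10 kb to the right (18.2 points each). With the replicate number as a block (replicate block, sign-flip permutation), the difference between the libraries' DR3 shares was 3.37 points (exact permutation p = 0.5, smallest possible 0.25). The values showed no pairing by number: deviations of same-numbered libraries correlated at -0.11, 0.00094 and -0.18. With 3 libraries per group this cannot settle whether the libraries are paired. Number 3 was the deepest library in both groups, with 66524392 and 68560701 tags. No block was possible for results that come from merged regions, which have no value per library. The tags of a peak were not at hand, so a peak missed in 1 list removes a region from the set.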
